A study of Mus musculus with 4 samples.

Results

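The TRIM genes, which encode the tripartite motif family of ubiquitin ligases, were examined in RNA from mouse microglia, the resident macrophages of the brain. A gene was taken as a member when the deposited tables listed it as protein coding under a symbol made of Trim, a number and at most 1 letter. This held for 49 of the 20308 genes in any table. The GENCODE M21 annotation holds 68 genes of that form, and the other 19, among them Trim38, were not analysed here. Of the 49 members, 13 stood on a list of TRIM genes known to be induced by interferon and 36 did not.

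A TRIM protein is built from a RING finger, a B-box and a coiled coil, followed by a variable end domain that selects what it binds. The RING finger passes ubiquitin to a target, either to mark it for degradation or to switch on a signalling complex. Many members act in antiviral defence: they sense or restrict viruses, or tune the signals that lead to interferon. Type I interferon in turn raises the transcription of a subset of them in macrophages and other cells, while the remaining members serve in chromatin, the cytoskeleton, muscle or neurons.

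Compared were 2 libraries that carry the label Pd1cKO-Cx3 (replicates 2 and 3), a conditional knockout of Pdcd1, and 2 libraries from Pd1fl/fl mice (replicates 1 and 2), which carry the floxed gene. All came from microglia isolated at postnatal day 11. What drives the deletion behind "Cx3", whether the floxed controls carried it, and whether each library came from a separate animal are not stated in the labels. The p-values thus reflect the spread of these libraries, which may be technical. Library totals ran from 14258420 to 15908954 counts.

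Pdcd1, which encodes the inhibitory receptor PD-1 and was the targeted gene, had 179 and 154 counts in Pd1cKO-Cx3-labelled replicates 2 and 3, and 0 and 43 counts in Pd1fl/fl replicates 1 and 2. Its fitted log2 fold change was 2.95 ± 1.48 (SE, edgeR adjusted p = 0.695). The Pdcd1 level was thus higher, not lower, under the knockout label, though the difference was uncertain. Counts per gene do not show whether a part of the gene was deleted, so the labels could not be tested. Every direction below follows the labels as given. Pd1fl/fl replicate 1 also stood apart in sex-linked expression: Xist reached 13374 counts there, against 0 in the other 3 libraries. The 8 microglial markers on the list used here, among them Tmem119, P2ry12 and Csf1r, were counted in every library, with a summed level of 46533 and 43980 CPM (counts scaled to a library total of 1000000) in the Pd1cKO-Cx3-labelled libraries and 60053 and 58472 CPM in Pd1fl/fl. Of these markers, Cx3cr1 and Fcrls passed edgeR as lower (adjusted p = 0.0251 and 0.0369). Cx3cr1 had 4658 and 4300 CPM in the Pd1cKO-Cx3-labelled libraries and 11474 and 10264 CPM in Pd1fl/fl. That was a large part of the difference in the sum. The median log2 fold change of the 8 markers was -0.15, and 7 were negative. Csf1r stood at -0.08 and Aif1 at 0.04. Mitochondrial transcripts made up 1.48% and 1.60% of all counts in the Pd1cKO-Cx3-labelled libraries and 1.24% and 1.02% in Pd1fl/fl.

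The level of TRIM transcripts spanned several orders of magnitude. Averaged over the 4 libraries, 34 members reached at least 5 CPM, 7 lay between 1 and 5 CPM and 8 lay under 1 CPM. Trim35 and Trim30a were the most abundant members, also per length of annotated exon, with 57.6 and 52.5 CPM per kilobase. They were followed per length by Trim26 (29.1 CPM per kilobase), Trim8 (23.7), Trim11 (21.9) and Trim32 (17.8). At the low end, Trim10, Trim29 and Trim6 had counts in at most 2 of the 4 libraries. Trim10 had 26 counts in the library labelled Pd1cKO-Cx3 replicate 3 alone, and Trim29 had 11 in Pd1fl/fl replicate 2 alone. Trim6 had 16 in the library labelled Pd1cKO-Cx3 replicate 3 and 4 in Pd1fl/fl replicate 1. With Trim43c, these members were too low to be tested, which left 45 tested members.

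Interferon-inducible members were mostly, but not uniformly, higher in the Pd1cKO-Cx3-labelled libraries. None of them, and none of the 45 tested members, passed edgeR's quasi-likelihood test at an adjusted p of 0.05 over the 15097 genes tested, where 0.0397% of all genes passed (0.0199% higher and 0.0199% lower). At an unadjusted p under 0.05 there were 5 members, all with a positive fold change (Trim30a, Trim30b, Trim30c, Trim34a and Trim59), and none with a negative one. Of all genes tested, 4.97% were higher and 3.12% lower at that p, 8.09% in all. DESeq2 called Trim30a on all 20308 genes, where it called 1.08% of them, 0.832% higher and 0.251% lower. On the 15097 genes that edgeR tested, it called Trim30a and Trim59, beside 1.54% of those genes, 1.18% higher and 0.364% lower.

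**Figure D1:**
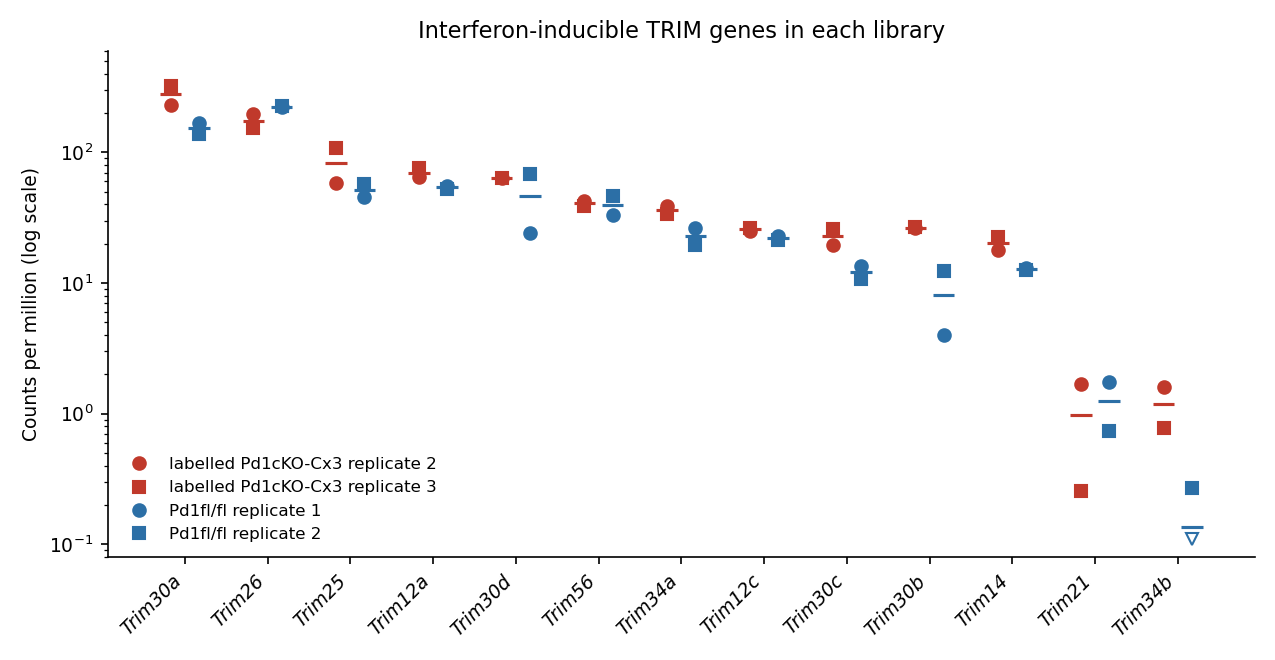
CPM (log axis) of the 13 interferon-inducible TRIM genes, with the Pd1cKO-Cx3-labelled libraries in red to the left and Pd1fl/fl in blue to the right of each gene. Points are libraries, bars are means of 2 libraries, and an open triangle marks a count of 0. Trim30a stood at 232 and 324 CPM in the Pd1cKO-Cx3-labelled libraries, above both Pd1fl/fl libraries, while Trim26 stood below them.

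Trim30a, a macrophage ligase known in mouse for restraining NF-kB signalling, had 232 and 324 CPM in Pd1cKO-Cx3-labelled replicates 2 and 3, and 169 and 139 CPM in Pd1fl/fl replicates 1 and 2. The groups did not overlap. The means were 278 ± 65.1 and 154 ± 20.6 CPM (SD, n = 2 each), which gave 0.84 ± 0.20 on the log2 scale (SE, edgeR adjusted p = 0.464). DESeq2 gave 0.84 with an adjusted p of 0.00167 on all genes and 0.00398 on the genes edgeR tested.

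The neighbouring copies differed in how far the controls spread. Trim30b had 26.2 and 26.7 CPM in the Pd1cKO-Cx3-labelled libraries and 4.02 and 12.3 CPM in Pd1fl/fl replicates 1 and 2. Its fold change was 1.69 ± 0.54 (log2 ± SE, edgeR adjusted p = 0.542), and it was 2.71 without Pd1fl/fl replicate 2 and 1.09 without Pd1fl/fl replicate 1. Trim30c had 19.7 and 26.0 CPM in the Pd1cKO-Cx3-labelled libraries and 13.5 and 10.7 CPM in Pd1fl/fl, with no overlap (log2 0.91 ± 0.31, edgeR adjusted p = 0.542). Trim30d did overlap: it had 63.3 CPM in each library labelled Pd1cKO-Cx3, and 24.3 and 68.8 CPM in Pd1fl/fl replicates 1 and 2. The sign of its fold change (0.44 ± 0.47) turned to -0.13 without Pd1fl/fl replicate 1.

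The Trim30 copies therefore did not keep a fixed ratio to each other between the controls. The ratio of Trim30d to Trim30a counts was 0.273 and 0.196 in the Pd1cKO-Cx3-labelled libraries, and 0.144 and 0.493 in Pd1fl/fl replicates 1 and 2. That of Trim30c to Trim30a stayed between 0.0767 and 0.0850 in all 4 libraries. Summed, the 4 copies had 341 and 440 CPM in the Pd1cKO-Cx3-labelled libraries, and 210 and 231 CPM in Pd1fl/fl, a ratio of means of 1.77. Of their 50-base words, 5.98% (Trim30a), 1.48% (Trim30b), 0.66% (Trim30c) and 7.49% (Trim30d) also occur in transcripts of other genes.

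Trim34a and Trim34b, copies related to human TRIM34, lay in the same direction. Trim34a had 39.1 and 33.9 CPM in the Pd1cKO-Cx3-labelled libraries and 26.3 and 19.7 CPM in Pd1fl/fl (log2 0.66 ± 0.26, edgeR adjusted p = 0.611). Trim34b was rare, with 23 and 12 counts in the Pd1cKO-Cx3-labelled libraries, and 0 and 4 counts in Pd1fl/fl replicates 1 and 2. Of their 50-base words, 59.7% (Trim34a) and 56.8% (Trim34b) also occur in other genes, each copy in the other among them, so their separate values are uncertain. Of the exon bases of Trim34a, 23.5% overlap Gm47248 on the opposite strand. Their sum was 40.7 and 34.7 CPM in Pd1cKO-Cx3-labelled libraries, against 26.3 and 19.99 CPM in Pd1fl/fl.

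Trim12a, Trim12c and Trim5 are mouse relatives of the primate restriction factor TRIM5, which binds retroviral capsids. Trim12a had 64.3 and 75.8 CPM in the Pd1cKO-Cx3-labelled libraries and 55.1 and 52.8 CPM in Pd1fl/fl, and Trim12c had 25.2 and 26.5 CPM in Pd1cKO-Cx3-labelled libraries, against 22.9 and 21.4 CPM in Pd1fl/fl. Neither pair of groups overlapped, but the differences were small (log2 0.37 ± 0.18 and 0.21 ± 0.24, edgeR adjusted p = 0.685 and 0.907). Trim5, which is on a wider interferon list, had 14.4 and 27.1 CPM in the Pd1cKO-Cx3-labelled libraries and 10.1 and 15.95 CPM in Pd1fl/fl, and the groups overlapped. Reads can be shared among these copies too, since 10.5% (Trim12a), 33.7% (Trim12c) and 36.6% (Trim5) of their 50-base words occur in other genes.

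Trim25, the ligase that activates the RNA sensor RIG-I, had 58.5 and 107.9 CPM in Pd1cKO-Cx3-labelled replicates 2 and 3 and 45.5 and 57.8 CPM in Pd1fl/fl replicates 1 and 2. Replicate 2 lay barely above the higher control and replicate 3 well above it. The fold change of 0.68 ± 0.32 (log2 ± SE, edgeR adjusted p = 0.678) was 0.18 without replicate 3. Trim14, a member without a RING finger that works at the mitochondrial adaptor MAVS, had 17.95 and 22.7 CPM in the Pd1cKO-Cx3-labelled libraries and 13.1 and 12.7 CPM in Pd1fl/fl (log2 0.65 ± 0.29, edgeR adjusted p = 0.655). Of the exon bases of Trim14, 38.0% overlap other genes on the opposite strand, Nans among them. No source used here says whether counting used strand, so part of the Trim14 counts may belong to them.

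Other interferon-inducible members did not lie higher. Trim26, a ligase encoded near the major histocompatibility complex, had 198 and 153 CPM in the Pd1cKO-Cx3-labelled libraries and 224 and 225 CPM in Pd1fl/fl, below both controls (log2 -0.37 ± 0.16, edgeR adjusted p = 0.649). Trim56, which has been linked to the DNA-sensing adaptor STING, had 42.6 and 39.1 CPM in Pd1cKO-Cx3-labelled libraries, against 33.3 and 46.5 CPM in Pd1fl/fl (log2 0.03 ± 0.25). Trim21, the cytosolic antibody receptor, was at the edge of detection, with 24 and 4 counts in the Pd1cKO-Cx3-labelled libraries and 28 and 11 counts in Pd1fl/fl. In both Trim56 and Trim21 the groups overlapped and the sign of the fold change turned without some libraries.

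As a group, 11 of the 13 interferon-inducible members had a positive fold change, with a median log2 fold change of 0.65. The 5 of them outside a gene cluster on chromosome 7, described below, had a median of 0.03. In 9 of the 13, both libraries labelled Pd1cKO-Cx3 lay above both controls, where 21.3% of all genes tested did so, and 1 lay below both, where 18.8% did. Of the 32 other tested members, 17 had a positive fold change, 6 lay above and 4 below both controls, and the median was 0.10. Over all 15097 genes the median was 0.01 and 50.7% were positive. Members with few counts could pass the filter only through the group in which they were high, so these counts describe the tested members and not the family. With at least 5 CPM required in 2 libraries, the medians were 0.64 over 11 interferon-inducible members and -0.08 over 24 others. These are descriptions of lists chosen with earlier results known, and the difference between the lists was not tested.

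**Figure D2:**
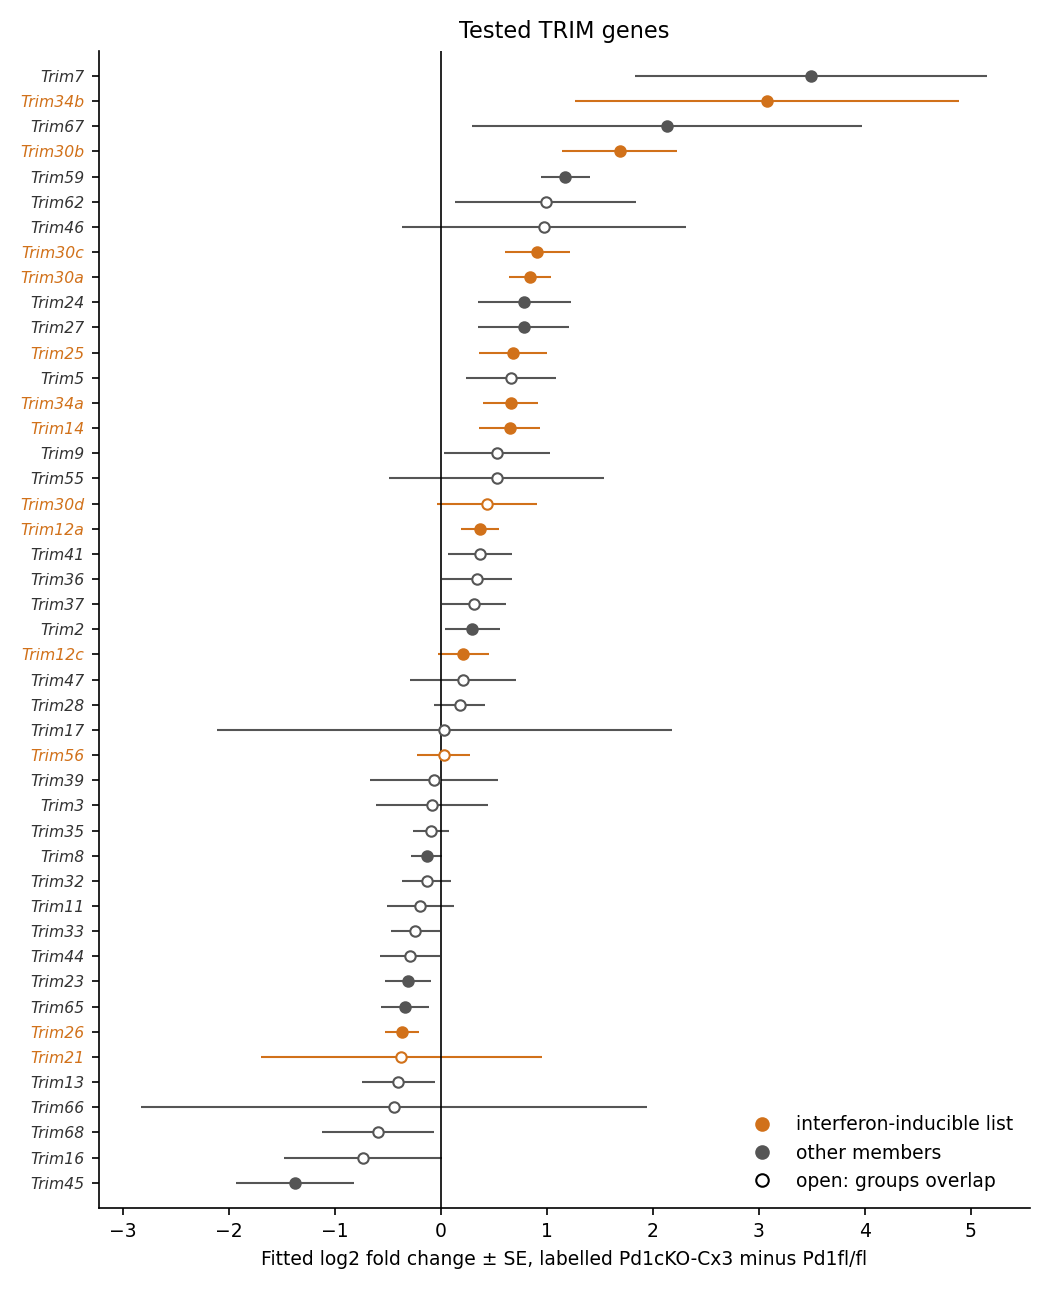
Fitted log2 fold change (labelled Pd1cKO-Cx3 minus Pd1fl/fl, x axis) with its SE for each of the 45 tested TRIM genes. Interferon-inducible members are orange and other members grey, and open points mark genes whose groups overlap. Of the interferon-inducible members 11 lie right of 0, while the others scatter around 0, with wide bars for rare genes such as Trim7.

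Of the 28 tested members with positive fold changes, 9 lay in a cluster on chromosome 7 and 19 elsewhere. The cluster (GRCm38 coordinates of the deposited tables) runs from Trim6, which starts at 104218793, to Trim30d, which ends at 104507849. In chromosomal order it holds Trim6, Trim34a, Trim5, Trim12a, Trim34b, Trim12c, Trim30b, Trim30c, Trim30a and Trim30d. All 9 tested members of the cluster had positive fold changes, where 50.7% of all genes tested were positive. They ran from 0.21 (Trim12c) to 3.08 ± 1.81 (SE) in the rare Trim34b, with a median of 0.66. As given above, reads can be shared among some of these copies. Of the 9, 7 lay above both controls, as did 21.3% of all genes tested. Without a library the median ranged from 0.59 to 1.06, the highest without the library labelled Pd1cKO-Cx3 replicate 2. In the 3 fits with a median above 0.66, Trim6 was tested too. Trim30d turned negative in the fit without Pd1fl/fl replicate 1, and no other cluster member turned in the 4 fits.

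Outside this cluster, 19 of 36 tested members had positive fold changes and the median was 0.03. The 5 other TRIM genes of chromosome 7 that were tested (Trim3, Trim21, Trim28, Trim66 and Trim68) had fold changes from -0.59 to 0.18, and the groups overlapped in each. Of the 13 interferon-inducible members, 5 lay outside the cluster (Trim14, Trim21, Trim25, Trim26 and Trim56). Of these, 3 had positive fold changes and the median was 0.03. It was 0.33 over the 4 with at least 5 CPM in 2 libraries, and -0.04 to 0.38 without a library. Of the 5, 2 lay above and 1 below both controls, as did 21.3% and 18.8% of all genes tested. Summed, the 5 had 318 and 323 CPM in Pd1cKO-Cx3-labelled libraries, against 318 and 342 CPM in Pd1fl/fl. The cluster was singled out after its values were seen and carries no test.

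**Figure D3:**
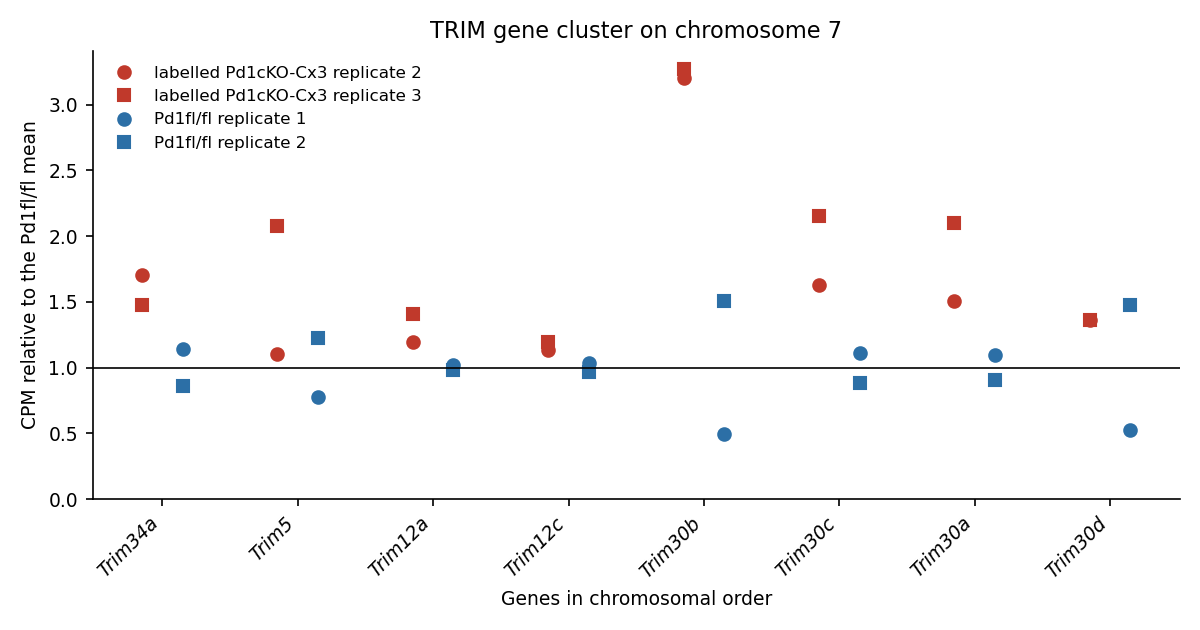
CPM of each library divided by the mean of the Pd1fl/fl libraries (y axis, line at 1) for the 8 members of the chromosome 7 cluster with a mean of at least 5 CPM, in chromosomal order. Libraries labelled Pd1cKO-Cx3 are red and left, and Pd1fl/fl libraries blue and right. Trim30b shows the widest separation, while for Trim30d and Trim5 a Pd1fl/fl library lies within or above the red points.

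Interferon acts on such genes through the interferon-stimulated response element, whose core was searched for as GAAA, any 2 bases and GAAA on both strands of RefSeq promoter windows (GRCm38.p6, 250 bases before to 50 after a start site). Windows were found for 36 of the 49 members. The letters occurred in 7 of the 12 interferon-inducible members with a window (Trim12a, Trim12c, Trim21, Trim26, Trim30a, Trim30d and Trim34a) and in 2 of the 24 others (Trim2 and Trim5). Among all genes with a window, 3.99% had them in at least 1 window. Some of the 9 members are neighbouring copies with almost the same stretch, so they are not independent occurrences. The stretches of all 9 are shown because they place members with positive and with negative fold changes side by side. Each is written 5′ to 3′ along the gene, with the matching letters in capitals:
Trim30a (chr7:104465190-104465259, minus strand): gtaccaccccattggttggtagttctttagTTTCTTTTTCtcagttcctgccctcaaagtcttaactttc
Trim30a, second start site (chr7:104446084-104446153, minus strand): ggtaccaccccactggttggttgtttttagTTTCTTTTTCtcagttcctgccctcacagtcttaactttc
Trim30d (chr7:104507851-104507920, minus strand): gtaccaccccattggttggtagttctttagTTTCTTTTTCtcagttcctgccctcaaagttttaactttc
Trim34a (chr7:104244437-104244506, plus strand): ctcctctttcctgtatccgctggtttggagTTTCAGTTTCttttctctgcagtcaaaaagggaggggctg
Trim12a (chr7:104315446-104315515, minus strand): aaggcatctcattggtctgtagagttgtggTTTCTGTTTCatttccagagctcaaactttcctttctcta
Trim12c (chr7:104353339-104353408, minus strand): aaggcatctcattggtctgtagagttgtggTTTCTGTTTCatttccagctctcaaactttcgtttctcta
Trim5 (chr7:104288116-104288185, minus strand): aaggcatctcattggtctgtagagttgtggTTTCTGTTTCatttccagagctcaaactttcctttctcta
Trim21 (chr7:102565433-102565499, minus strand): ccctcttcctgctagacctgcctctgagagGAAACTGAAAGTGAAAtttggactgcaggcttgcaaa
Trim26 (chr17:36836956-36837031, plus strand): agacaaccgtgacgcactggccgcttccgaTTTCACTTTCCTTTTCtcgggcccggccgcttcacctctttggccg
Trim2, 1 of 5 windows, at a start inside the gene (chr3:84212789-84212840, minus strand): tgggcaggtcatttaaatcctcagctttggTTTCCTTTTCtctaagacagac

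In Trim21 and Trim26 the capitals span 2 overlapping matches. Over their 70 bases, the stretches of Trim12a and Trim5 were identical and that of Trim12c differed from them at 3 bases, while Trim30d differed from the first Trim30a stretch at 1 base. The letters thus stood both in members with positive fold changes, such as Trim30a (log2 0.84) and Trim34a (0.66), and in Trim26 (-0.37). The letters also stood in the rare Trim21 (-0.37 ± 1.33, SE), whose sign turned without some libraries. They were not in the windows of Trim30b, Trim30c, Trim34b, Trim25 or Trim56. The Trim30b window (chr7:104358597-104358896) lies inside the annotated gene, away from its start at 104369884 on the minus strand, and so does not cover that start.

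Among the members outside the interferon list, the chromatin regulators of the TIF1 group showed small or uncertain differences. Trim28, the corepressor that silences retroelements, had 34.0 and 42.8 CPM in the Pd1cKO-Cx3-labelled libraries and 30.5 and 37.0 CPM in Pd1fl/fl. Trim33, a regulator of SMAD signalling, had 43.6 and 62.0 CPM in Pd1cKO-Cx3-labelled libraries, against 60.0 and 64.0 CPM in Pd1fl/fl. Both overlapped between groups. Trim24 had 11.9 and 8.65 CPM in the Pd1cKO-Cx3-labelled libraries and 6.91 and 4.91 CPM in Pd1fl/fl, with no overlap (log2 0.79 ± 0.44, edgeR adjusted p = 0.740), and Trim66 was near 0 throughout.

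The NHL-repeat members Trim2, Trim3 and Trim32 had fold changes from -0.14 to 0.30. Trim2, a neuronal ligase, had 57.7 and 59.7 CPM in the Pd1cKO-Cx3-labelled libraries and 57.7 and 37.2 CPM in Pd1fl/fl, so that replicate 1 of the controls lay almost level with them. Trim32 had 54.7 and 54.9 CPM in Pd1cKO-Cx3-labelled libraries, against 49.3 and 70.4 CPM in Pd1fl/fl. The COS-box and neuronal members Trim9, Trim36, Trim46 and Trim67 all had positive fold changes, from 0.34 to 2.13, but those of Trim9, Trim36 and Trim46 turned negative in at least 1 fit without a library (lowest -0.062, -0.18 and -0.90). Trim36 had 57.4 and 30.8 CPM in Pd1cKO-Cx3-labelled libraries, against 34.3 and 35.0 CPM in Pd1fl/fl, and Trim9 had 20.9 and 10.3 CPM in Pd1cKO-Cx3-labelled libraries, against 7.54 and 13.9 CPM in Pd1fl/fl. Their groups overlapped except in the rare Trim67. The 8 neuronal markers summed to 57.6 and 33.8 CPM in the Pd1cKO-Cx3-labelled libraries and 27.4 and 33.7 CPM in Pd1fl/fl, and the part of neuronal RNA in these 4 genes was not tested.

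Trim59, a membrane-anchored member, had close replicates in both groups, with 36.9 and 36.1 CPM in the Pd1cKO-Cx3-labelled libraries and 15.97 and 16.16 CPM in Pd1fl/fl. The log2 fold change was 1.17 ± 0.23 (SE, unadjusted p = 0.00282, edgeR adjusted p = 0.391) and stayed between 1.16 and 1.20 in the 4 fits without a library. DESeq2 called it on the genes edgeR tested (adjusted p = 0.0308) and not on all genes (adjusted p = 0.0700). The other membrane-anchored member, Trim13, had 18.3 and 11.5 CPM in Pd1cKO-Cx3-labelled libraries, against 21.6 and 17.6 CPM in Pd1fl/fl. Trim23, which carries an ARF-type GTPase domain, was lower in both libraries labelled Pd1cKO-Cx3, with 40.7 and 35.8 CPM in Pd1cKO-Cx3-labelled libraries, against 42.2 and 52.0 CPM in Pd1fl/fl. Trim37 had 41.0 and 49.8 CPM in Pd1cKO-Cx3-labelled libraries, against 27.3 and 45.4 CPM in Pd1fl/fl.

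Trim45 was at the low end. It had 44 and 34 counts in the Pd1cKO-Cx3-labelled libraries and 116 and 94 counts in Pd1fl/fl, with a fitted difference of -1.37 ± 0.56 (log2 ± SE, edgeR adjusted p = 0.619), the lowest of the tested members. Trim7, whose product interacts with glycogenin, had 41 and 36 counts in the Pd1cKO-Cx3-labelled libraries, and 7 and 0 counts in Pd1fl/fl. Its fitted fold change of 3.50 ± 1.66 (edgeR adjusted p = 0.679) rests on few reads.

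The abundant members outside the list differed little. Trim35, a ligase of blood cells on the wider interferon list, had 272 and 244 CPM in the Pd1cKO-Cx3-labelled libraries and 234 and 313 CPM in Pd1fl/fl. Trim11 had 93.1 and 54.0 CPM in Pd1cKO-Cx3-labelled libraries, against 69.2 and 97.7 CPM in Pd1fl/fl, and Trim44, which lacks a RING finger, had 38.9 and 34.2 CPM in Pd1cKO-Cx3-labelled libraries, against 34.4 and 54.6 CPM in Pd1fl/fl. These 3 overlapped. Trim8, a regulator of cytokine signalling, was slightly lower in both libraries labelled Pd1cKO-Cx3, with 83.0 and 84.8 CPM in Pd1cKO-Cx3-labelled libraries, against 95.9 and 87.2 CPM in Pd1fl/fl. Trim65, a ligase for the RNA sensor MDA5, had 34.8 and 45.1 CPM in Pd1cKO-Cx3-labelled libraries, against 46.6 and 53.9 CPM in Pd1fl/fl. The less abundant Trim27 had 13.3 and 27.8 CPM in the Pd1cKO-Cx3-labelled libraries and 13.1 and 10.6 CPM in Pd1fl/fl. Replicate 2 of the Pd1cKO-Cx3 label was thus nearly level with a control. The log2 fold change of Trim27 was larger, at 0.78 ± 0.43 (SE), and 0.16 without replicate 3 of that label.

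Libraries of the same label could differ as much as the groups did. Among the 34 members with a mean of at least 5 CPM, 4 differed more than 2-fold between the Pd1cKO-Cx3-labelled libraries, and 3 between the Pd1fl/fl libraries. The widest spread was that of Trim39, with 20.1 and 16.3 CPM in the Pd1cKO-Cx3-labelled libraries and 29.7 and 8.01 CPM in Pd1fl/fl replicates 1 and 2, a 3.70-fold difference between the controls. Trim30b and Trim30d differed 3.06-fold and 2.83-fold between the controls, both lower in Pd1fl/fl replicate 1.

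TRIM family genes with other names were read separately. Pml, which organises nuclear bodies, had 99.2 and 125 CPM in the Pd1cKO-Cx3-labelled libraries and 71.9 and 75.4 CPM in Pd1fl/fl (log2 0.60 ± 0.17, edgeR adjusted p = 0.535). Mid1, a microtubule-bound member, had 299 and 422 counts in the Pd1cKO-Cx3-labelled libraries and 398 and 1316 counts in Pd1fl/fl replicates 1 and 2, so the groups overlapped and 1 control set the mean. Mid2 and Mefv were not analysed here.

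Genes that TRIM proteins act on or answer to gave a mixed picture. Of 12 genes of the RNA and DNA sensing pathway, none passed edgeR's adjusted threshold, and 5 had an unadjusted p under 0.05, all higher, against 4.97% of all genes that were higher at that p. They were the sensors Ddx58, Ifih1 and Dhx58, the adaptor Traf3 and the transcription factor Irf7. Ddx58, which encodes the Trim25 target RIG-I, had 118 and 116 CPM in the Pd1cKO-Cx3-labelled libraries and 33.3 and 59.8 CPM in Pd1fl/fl. Irf7 had 39.8 and 57.3 CPM in Pd1cKO-Cx3-labelled libraries, against 6.41 and 10.9 CPM in Pd1fl/fl. In contrast Mavs, Tmem173, Mb21d1, Tbk1, Irf3 and Traf6 had fold changes from -0.36 to 0.17. Over all 12 genes of this pathway the range was -0.46 to 2.48, with a median of 0.15. Of the 12, 5 lay above and 2 below both controls, as did 21.3% and 18.8% of all genes tested.

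Among genes of interferon receptor signalling, Stat2 and Irf9 had an unadjusted p under 0.05 with log2 fold changes of 1.04 and 0.80, while the receptor genes Ifnar1 and Ifnar2 stood at 0.01 and -0.06. None of these 4 passed the adjusted threshold in edgeR. Among 12 ubiquitin chain partners, Ube2l6 (1.40) and Uba7 (0.37), which serve the ubiquitin-like protein ISG15, had an unadjusted p under 0.05, and the median was 0.04. At that unadjusted p, 4.97% of all genes tested in edgeR were higher. Of the pathway genes named here, DESeq2 on all genes called Ddx58, Ifih1, Dhx58, Irf7, Stat2, Irf9 and Ube2l6. It called 1.08% of all genes, 0.832% higher and 0.251% lower.

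The median fold change of the interferon-inducible TRIM members was smaller than that of a list of classical interferon-stimulated genes. The ranges overlapped, from -0.37 to 3.08 in these TRIM members and from 1.62 to 3.64 in the reference genes. The 3.08 was that of the rare Trim34b (SE 1.81), and the next highest of these TRIM members was Trim30b at 1.69. Of 10 such reference genes, all lay above both controls, as did 21.3% of all genes tested. Their median log2 fold change was 2.25, against 0.65 for the interferon-inducible TRIM members. Oas2, an antiviral synthetase gene, passed edgeR over all genes (log2 3.56, adjusted p = 0.0369) and 9 of the 10 passed DESeq2, which called 1.08% of all genes. Without a library, the reference median ranged from 1.95 to 2.72, and that of the interferon-inducible TRIM members from 0.44 to 0.63. No test of the difference between these lists was made.

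**Figure D4:**
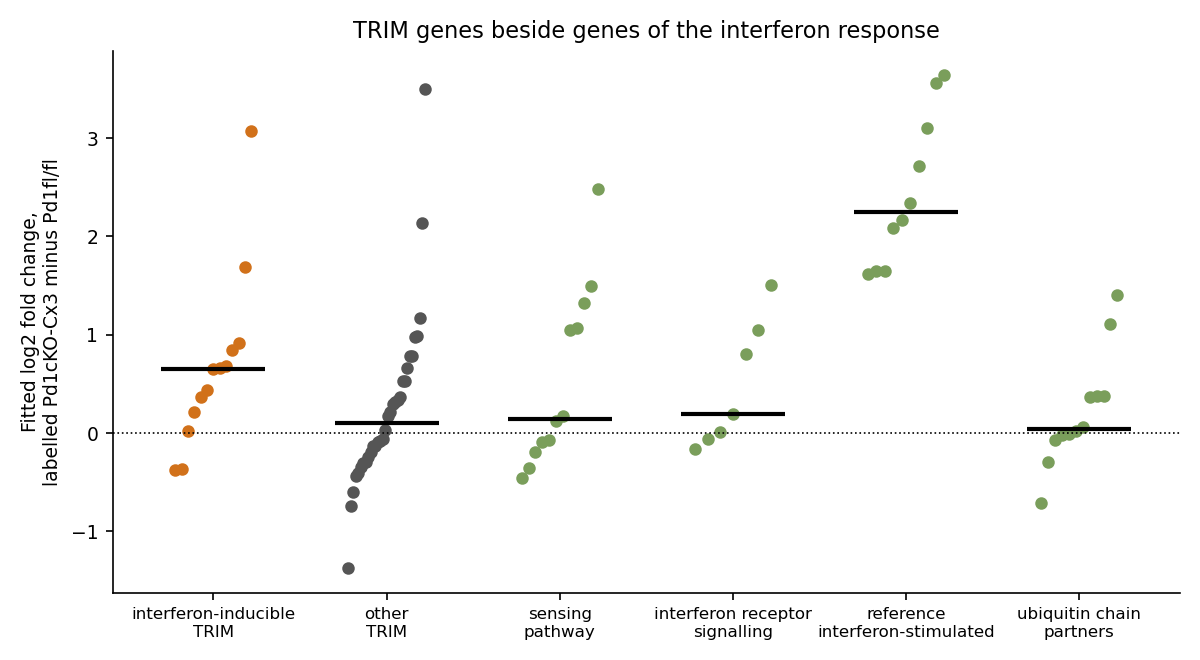
Fitted log2 fold change (labelled Pd1cKO-Cx3 minus Pd1fl/fl, y axis) of each tested gene in 6 lists, with the median of each list as a black bar and genes ordered by value within a list. The reference interferon-stimulated genes have a median of 2.25, the interferon-inducible TRIM members 0.65 and the other TRIM members 0.10.

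Markers of several other cell types also differed between the labels, and in bulk RNA fewer cells of a type cannot be told apart from less RNA per cell. Of 8 markers of border-associated macrophages, which share much of the interferon response, 7 were tested and all 7 had positive fold changes. They summed to 663 and 638 CPM in the Pd1cKO-Cx3-labelled libraries and 428 and 516 CPM in Pd1fl/fl. The 8 endothelial markers, 6 of them with positive fold changes, summed to 137 and 110 CPM in Pd1cKO-Cx3-labelled libraries, against 98.9 and 66.7 CPM in Pd1fl/fl, and the 8 mural and fibroblast markers, all with positive fold changes, to 171 and 183 CPM in Pd1cKO-Cx3-labelled libraries, against 82.3 and 45.9 CPM in Pd1fl/fl. Tie1 was at 0 counts in Pd1fl/fl replicate 1 and Notch3 in both controls. The 5 listed lymphocyte markers summed to 62.8 and 82.2 CPM in Pd1cKO-Cx3-labelled libraries, against 87.6 and 66.9 CPM in Pd1fl/fl, and most of that sum was Cd79b. Of the 4 tested, 3 had positive fold changes, all from few counts. Cd4 had 56 and 17 counts in Pd1cKO-Cx3-labelled libraries, against 0 and 0 in Pd1fl/fl, and Ms4a1 had 28 and 29 in Pd1cKO-Cx3-labelled libraries, against 0 and 0 in Pd1fl/fl. Cd79a had 26 and 26 counts in Pd1cKO-Cx3-labelled libraries, against 0 and 2 in Pd1fl/fl.

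The 6 listed monocyte and neutrophil markers summed to 84.2 and 71.9 CPM in Pd1cKO-Cx3-labelled libraries, against 39.7 and 25.0 CPM in Pd1fl/fl. Most of that sum was Plac8, and 1 of the 4 tested had a positive fold change. The 8 oligodendrocyte markers, 7 of them with positive fold changes, summed to 1132 and 397 CPM in Pd1cKO-Cx3-labelled libraries, against 697 and 327 CPM in Pd1fl/fl, with overlap. The 7 astrocyte markers, 3 of them with positive fold changes, summed to 489 and 317 CPM in Pd1cKO-Cx3-labelled libraries, against 423 and 384 CPM in Pd1fl/fl, also with overlap. The part of such cells in the TRIM values was not tested.

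In the authors' deposited tables, each of which compares 1 library labelled Pd1cKO-Cx3 with 1 control, a gene is marked when p is under 0.05 and the absolute log2 fold change over 1. Per the authors' deposited tables, Trim7, Trim30b, Trim34b and Trim59 were marked as higher in all 4 tables, and Trim45 as lower in all 4, out of 44 members listed in each. Of the 15933 genes listed in all 4, the authors' deposited tables so marked 4.1% as higher and 1.59% as lower. The 4 tables reuse the same 4 libraries, so they are not independent. Trim17, Trim21, Trim43c, Trim46 and Trim66 were marked in opposite directions in different deposited tables of the authors.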

How the data were processed

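RNA from microglia of 2 libraries labelled Pd1cKO-Cx3 and 2 labelled Pd1fl/fl was measured by sequencing. The deposited counts are whole reads for each Ensembl gene, as the file headers and values show. Tools named in the submitters' processing notes, without roles, are HTSeq 0.6.0, TopHat2 2.0.12 and Bowtie2 2.2.3, with the build mm9, but 47 of 49 members had exactly the GENCODE M21 position on GRCm38. The deposited CPM columns are scaled to a library total of 1000000, with a count of 0 written as 0.5, as their values show. The deposited log2 fold changes and p-values of the authors compare 2 libraries, with a tool not given in the sources used here. Each library stood in 2 tables with identical counts and was taken once; genes in neither table had at most 4 counts and were given 0.

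All genes were fitted in edgeR 4.0.16 (R 4.3.3) with TMM factors, filterByExpr, quasi-likelihood testing and p-values adjusted by Benjamini-Hochberg, called under 0.05. SE is the fold change over the square root of F. Fold changes are log2, labelled Pd1cKO-Cx3 minus Pd1fl/fl; CPM uses library totals. Alternatives were other factors, other filters, DESeq2 1.42.0 and each library left out. DESeq2 on the genes edgeR tested was added after seeing the data. The edgeR fit was tested on simulated data. Depth was similar across libraries, and members under 1 CPM rest on few reads.

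The members, the interferon list and the other lists were chosen with earlier results of these data known. Named were all interferon-inducible members, the 10 most abundant others, members with unadjusted p under 0.05, and members of at least 5 CPM without overlap. In the related lists, genes with unadjusted p under 0.05 and some abundant ones were named. Other members, and the chromosome 7 cluster, were named after their values were seen. Exon lengths, overlaps and shared 50-base words came from GENCODE M21, and promoter windows from RefSeq (GRCm38.p6). A result on 1 gene of the related lists is not reported here.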

Additional observations from a re-analysis of the deposited data

How the results depend on the processing

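The number of genes called in edgeR was 6, and 32 with no filter on low counts or with 5 CPM in 2 libraries. DESeq2 called 220 on all genes and 233 on the genes edgeR tested, a setting added after seeing the data. Without a library, edgeR called from 4 to 21, the highest without Pd1fl/fl replicate 2. No TRIM member was called in edgeR under any factor, filter or left-out library tried, while DESeq2 called 1 on all genes and 2 on the genes edgeR tested. The median log2 fold change of interferon-inducible members ranged from 0.44 to 0.63 without a library and kept its sign in each alternative run. That of the other members, 0.10, was -0.0825 with 5 CPM in 2 libraries. Among the 4 fits without a library, the lowest was -0.062 without Pd1cKO-Cx3-labelled replicate 2, and the highest 0.24 without Pd1fl/fl replicate 1. The wider interferon list left both medians as they were.

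Of the 26 members named by rule, 8 changed sign in at least 1 fit without a library. Their ranges were -0.64 to 0.16 for Trim11, -2.25 to 0.43 for Trim21, -0.13 to 1.37 for Trim30d and -0.37 to 0.15 for Trim32. They were -0.29 to 0.13 for Trim35, -0.0127 to 0.73 for Trim37, -0.59 to 0.0836 for Trim44 and -0.20 to 0.29 for Trim56. Of the members named after their values were seen, Trim3, Trim9, Trim17, Trim36, Trim39, Trim46 and Trim66 also changed sign. The cause was not tested. No paired analysis was possible because the labels state no pairing between libraries of the 2 groups. Depth limits members such as Trim21 and Trim34b, and 2 libraries a group limit all tests.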
